A study of Mus musculus with 4 samples.

Results

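Lysyl oxidases, which act on collagen and elastin, and collagen hydroxylases, which modify new collagen chains, were followed in primary vascular smooth muscle cells (VSMCs). Cells with and without Cre-driven deletion of Mmp14 were compared. The list held 10 genes: Lox, Loxl1, Loxl2, Loxl3, Loxl4, Plod1, Plod2, Plod3, P4ha1 and P4ha2. A gene was kept where a row of the array table was annotated with its symbol and no other, which gave 8 of the 10, each with 1 row, out of 22180 genes named that way. Loxl2 and Plod3 had no such row and are not described. All 8 genes lay above the level below which genes were left out of the test, a mean log2 value of 3.02, so the 8 were among the 12550 genes tested.

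The cells came from thoracic aortas of mice without Apoe (Apoe-/-) that carried floxed Mmp14 alleles (Mmp14 fl/fl) and had eaten a Western diet for 3 months. These features were shared by both groups. The controls were SM22α-Cre(-) and the knockouts SM22α-Cre(+), with Cre expressed from the promoter of SM22α (Tagln), a smooth muscle gene, so deletion is set by where that promoter is active and other cells in the dish can keep Mmp14. Adventitia had been removed and the cells had been grown for 5 days in serum. Each group had 2 arrays, from what the design text calls independent pairs of mice. Age is not given in the sources used here.

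As background, prolyl 4-hydroxylases, tetramers of catalytic alpha subunits (P4ha1, P4ha2, P4ha3) and the shared beta subunit P4hb, modify prolines in new collagen chains inside the endoplasmic reticulum, which lets the triple helix hold at body temperature. Lysyl hydroxylases, encoded by the Plod genes, modify lysines of the same chains. Both families are dioxygenases that need iron and ascorbate. After secretion, lysyl oxidases, which carry copper, convert lysines and hydroxylysines of collagen and lysines of elastin to aldehydes that then form cross-links. In the aortic wall, loss of Lox is known to weaken elastic lamellae and to cause aneurysm. MT1-MMP, the product of Mmp14, is a membrane-anchored protease that cleaves fibrillar collagen at the cell surface.

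Mmp14 itself read log2 8.71 and 9.05 on the control arrays and 8.27 and 8.19 on the knockout arrays, a difference of -0.65 (SE 0.17; limma, adjusted p = 0.319). Both knockout arrays were lower than both controls, but signal remained in the knockouts. The row may include probes outside the deleted exons, and cells that keep Mmp14 may add signal. Neither was tested. Over all rows Pearson's r between arrays was 0.974 to 0.982, across rows that are not independent replicates. All 7 smooth muscle markers of the labelled cell type had means above the test level of 3.02. Among them Acta2, Cnn1 and Tagln read log2 8.16 or more on every array, Smtn 5.46 to 6.18, Myh11 4.98 to 5.50, Lmod1 4.02 to 5.69 and Myocd 3.12 to 3.39. Markers of macrophages and endothelium were present too, as described below.

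None of the 8 genes passed the test across all genes (limma with Benjamini-Hochberg adjustment over 12550 genes, adjusted p under 0.05), and neither did any other gene (0% called). Within that limit, Plod1 was the member with the largest positive difference and Loxl4 the one with the largest negative difference. Plod1 was 1.56-fold higher and Loxl4 1.99-fold lower in the knockouts, and for both genes the arrays of the groups stood well apart. All 4 lysyl oxidases had a lower mean in the knockouts, whereas 3 of the 4 hydroxylases, Plod1, P4ha1 and P4ha2, had a higher one. Across the 8 genes the median difference was -0.21, with 3 higher and 5 lower. Leaving out single arrays changed the sign for Loxl3, P4ha1 and P4ha2, and moved the median to 0.16 without knockout replicate 2 and to -0.55 without knockout replicate 1. Over all tested genes the median was -0.05, with 41.7% higher. At an unadjusted p under 0.05 there were 2 of the 8 genes, Plod1 and Loxl4, beside 11.7% of all genes, with Plod1 higher (4.89% of all genes) and Loxl4 lower (6.78%).

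**Figure D1:**
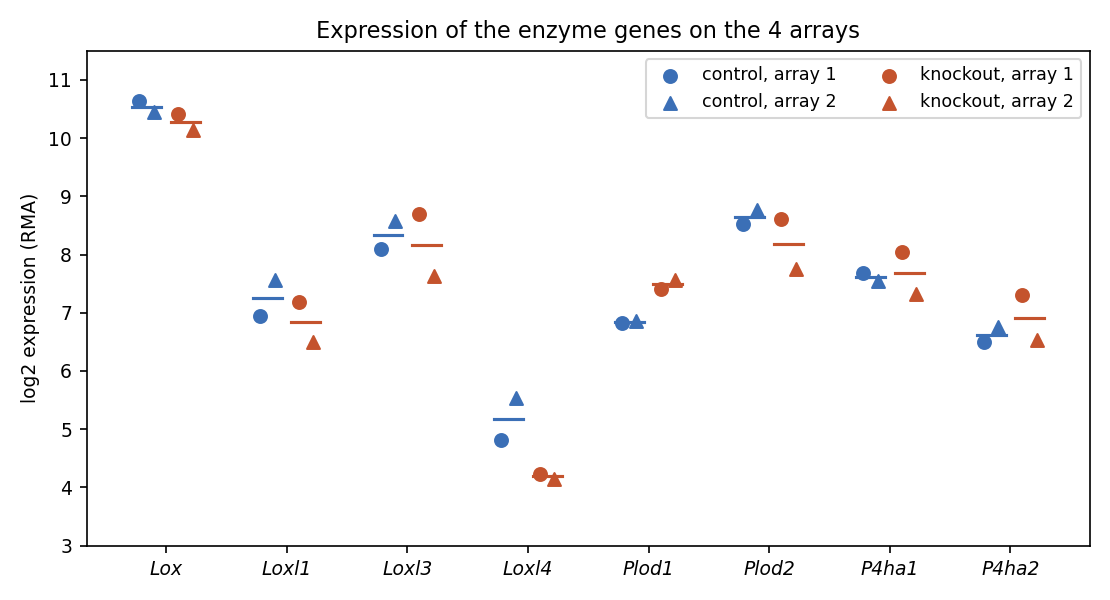
Log2 expression (RMA) of the 8 genes on each of the 4 arrays. Blue marks are control arrays, orange marks knockout arrays, circles array 1, triangles array 2, and short lines the group means. Loxl4 and Plod1 show clear space between the groups, and for the other 6 genes the knockout arrays lie farther apart than the group means.

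Lox, the founding lysyl oxidase, read log2 10.63 and 10.44 on the control arrays and 10.42 and 10.14 on the knockout arrays. The knockouts were lower, but the groups were only 0.02 apart. The means were 10.54 ± 0.13 and 10.28 ± 0.20 (SD, n = 2 each), and they differed by -0.25 (SE 0.17, 95% interval -0.70 to 0.19; limma, adjusted p = 0.615). The interval leaves room for anything from 0.614 to 1.14 times the control level, and leaving out single arrays gave -0.40 to -0.11.

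Loxl4, a lysyl oxidase with scavenger receptor cysteine-rich domains in front of its catalytic domain, read 4.82 and 5.54 on the control arrays and 4.23 and 4.15 on the knockout arrays. Both knockouts lay below both controls, with 0.59 between the groups, and the control arrays were 0.71 apart. The difference was -0.99 (SE 0.27, 95% interval -1.69 to -0.29), and the adjusted p of 0.330 (limma) did not pass. It was -0.63 when control replicate 2 was left out and -1.35 when control replicate 1 was left out. Intervals here are for 1 gene at a time and are not widened for the number of genes tested.

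Loxl1, which is bound to the elastic fibre by fibulin-5 and is needed to renew elastic fibres in adult tissue, read 6.95 and 7.56 on control arrays, against 7.19 and 6.49 on knockout arrays. Knockout array 1 fell between the control arrays and knockout array 2 below both, so the groups overlapped. The difference was -0.41 (SE 0.33, 95% interval -1.27 to 0.45; limma, adjusted p = 0.678). Leaving out knockout replicate 2 gave -0.06 and leaving out control replicate 2 gave -0.10, against -0.76 and -0.72 when replicate 1 of the knockouts or of the controls was left out.

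Loxl3, a relative of Loxl4 with the same kind of receptor domains, read 8.10 and 8.58 on control arrays, against 8.69 and 7.64 on knockout arrays. The knockout arrays were the highest and the lowest of the 4, so the controls lay between them. The difference of -0.17 (SE 0.40; limma, adjusted p = 0.903) had no settled direction, being 0.36 without knockout replicate 2 and -0.70 without knockout replicate 1.

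Plod1, the lysyl hydroxylase that acts on lysines in the helical part of collagen, had the most even values of the 8 genes. It read 6.82 and 6.86 on control arrays, against 7.41 and 7.56 on knockout arrays. The knockouts were higher, and the 0.55 between the groups was larger than the gap of 0.04 within the controls or of 0.15 within the knockouts. The difference was 0.64 (SE 0.14, 95% interval 0.28 to 1.01), 1.21 to 2.02 times the control level, with an unadjusted p of 0.00684 and an adjusted p of 0.262 (limma). Leaving out any single array gave 0.57 to 0.72.

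Plod2, the lysyl hydroxylase of the non-helical telopeptides, read 8.52 and 8.76 on control arrays, against 8.61 and 7.76 on knockout arrays. Knockout array 1 sat between the controls and knockout array 2 below them. The difference was -0.46 (SE 0.32, 95% interval -1.28 to 0.37; limma, adjusted p = 0.625), and it was -0.03 without knockout replicate 2 and -0.88 without knockout replicate 1. Plod1 and Plod2 thus had means on opposite sides of 0. Within an array, the log2 ratio of Plod1 to Plod2, set to a mean of 0 in the controls, was 0.10 and -0.10 on control arrays, against 0.60 and 1.60 on knockout arrays. The ratio was 2.14-fold higher in the knockouts without overlap, and the exact two-sided permutation p of 0.333 is the smallest that 2 arrays against 2 can give.

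P4ha1, the major catalytic subunit of prolyl 4-hydroxylase, read 7.69 and 7.54 on control arrays, against 8.05 and 7.32 on knockout arrays. P4ha2, its alternative subunit, read 6.49 and 6.76 on control arrays, against 7.30 and 6.53 on knockout arrays. Both genes had their highest value on knockout array 1, and for both the groups overlapped. The difference was 0.07 (SE 0.28, 95% interval -0.65 to 0.80) for P4ha1 and 0.29 (SE 0.29, 95% interval -0.48 to 1.06) for P4ha2, with adjusted p-values of 0.943 and 0.750 (limma). Without knockout replicate 1 they were -0.29 and -0.09, so neither direction was settled. The within-array ratio of P4ha1 to P4ha2 differed by -0.22 between the groups, which overlapped (exact two-sided permutation p = 0.667). Only these 2 ratios were computed, and the Benjamini-Hochberg adjusted exact permutation p was 0.667 for each.

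**Figure D2:**
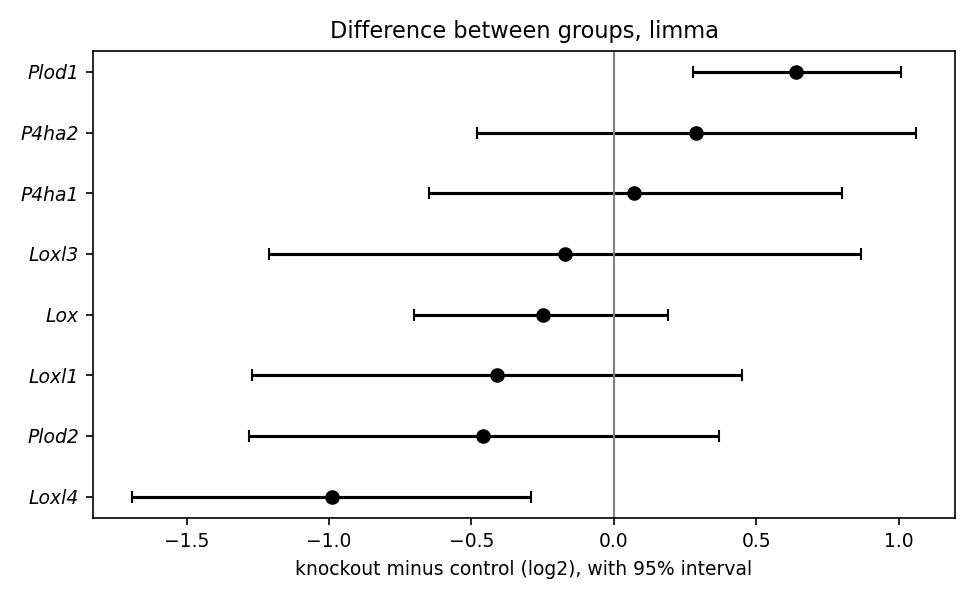
Knockout minus control difference (log2) of the 8 genes, ordered by size, with 95% intervals from limma that are not adjusted for the number of genes. The intervals of Plod1 (0.28 to 1.01) and Loxl4 (-1.69 to -0.29) lie to one side of 0 and the other 6 cross it.

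For 3 of the 8 genes, Lox, Loxl4 and Plod1, the arrays of the groups did not overlap, a share of 37.5% beside 44.3% of all tested genes. The knockouts lay above in 1 of the 8, Plod1 (16.7% of all genes), and below in 2 of the 8, Lox and Loxl4 (27.5% of all genes). As a set the 8 genes therefore separated the groups no more often than genes in general.

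The promoters of Plod1, Loxl4, P4ha1 and P4ha2 are printed to show the sequence at the start of these genes. They were those of the 8 genes with an entry among the windows kept and were not picked by their expression values. Each window spans 300 bases across the RefSeq gene start, most of them upstream (build GRCm38.p6), 5′ to 3′ on the gene's strand. Of the 8 genes, 4 had an entry among the windows kept, which left out 1 chromosome and windows of another length. A gene not printed may thus have had a window that was left out. Capitals mark ACGTG or GCGTG on either strand, the core letters of the element bound by hypoxia-inducible factors, for which prolyl 4-hydroxylase and lysyl hydroxylase genes are known targets.
Plod1 (chr4:147936727-147937026, minus strand): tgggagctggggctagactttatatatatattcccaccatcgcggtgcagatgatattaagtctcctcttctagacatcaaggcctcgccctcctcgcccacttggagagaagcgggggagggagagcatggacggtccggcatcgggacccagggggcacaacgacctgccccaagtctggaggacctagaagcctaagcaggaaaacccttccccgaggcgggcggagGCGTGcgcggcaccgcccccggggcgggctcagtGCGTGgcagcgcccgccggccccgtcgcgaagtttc
Loxl4 (chr19:42612757-42613056, minus strand): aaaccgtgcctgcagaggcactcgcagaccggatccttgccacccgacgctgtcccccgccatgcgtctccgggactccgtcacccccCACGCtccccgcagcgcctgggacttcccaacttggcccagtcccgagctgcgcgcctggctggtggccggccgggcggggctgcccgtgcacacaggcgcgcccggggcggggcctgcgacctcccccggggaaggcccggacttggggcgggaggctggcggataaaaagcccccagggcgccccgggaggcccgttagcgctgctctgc
P4ha1 (chr10:59323046-59323345, plus strand): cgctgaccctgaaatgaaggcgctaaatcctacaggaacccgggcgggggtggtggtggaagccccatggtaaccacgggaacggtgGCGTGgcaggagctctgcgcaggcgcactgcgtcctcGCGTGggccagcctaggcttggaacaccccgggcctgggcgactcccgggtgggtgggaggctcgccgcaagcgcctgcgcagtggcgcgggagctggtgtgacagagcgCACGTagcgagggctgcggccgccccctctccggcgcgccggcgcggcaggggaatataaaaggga
P4ha2 (chr11:54100674-54100973, plus strand): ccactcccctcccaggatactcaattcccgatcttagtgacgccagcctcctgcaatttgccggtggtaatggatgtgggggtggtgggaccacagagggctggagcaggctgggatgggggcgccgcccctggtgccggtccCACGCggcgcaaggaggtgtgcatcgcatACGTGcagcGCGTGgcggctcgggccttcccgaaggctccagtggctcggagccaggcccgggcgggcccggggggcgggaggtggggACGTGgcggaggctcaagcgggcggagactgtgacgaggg
The P4ha2 window held 4 matches, P4ha1 3, Plod1 2 and Loxl4 1. ACGTG was found once in P4ha1 and in 2 places in P4ha2, and the windows of Plod1 and Loxl4 held GCGTG alone. At least 1 match to either form was found in 43.8% of the 32851 windows kept, all of the same length, ACGTG in 19.6% and GCGTG in 32.4%. The matches are letters in a window and were not tested as sites. Each of the 4 windows was at least 64.3% G and C.

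The knockout arrays differed from each other in most of these genes. Knockout array 2 was below knockout array 1 for 7 of the 8 genes, all but Plod1, beside 47.0% of all tested genes. The median of knockout array 2 minus knockout array 1 was -0.72 over the 8 genes and 0.02 over all genes. For 5 genes, Loxl1 (-0.70), Loxl3 (-1.05), Plod2 (-0.85), P4ha1 (-0.73) and P4ha2 (-0.77), array 2 was lower by at least 0.5, which held for 5.77% of all genes. The limit of 0.5 was chosen after these values were seen. Control array 2 was above control array 1 for 6 of the 8 (47.2% of all genes), with a median of 0.26.

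The same order of the knockout arrays was seen in smooth muscle markers. Knockout array 2 was lower than knockout array 1 for 6 of 7 of them, 4 by at least 0.5, and their mean log2 level was 7.35 on array 1 and 6.75 on array 2. In the controls that mean was 7.18 on array 1 and 6.90 on array 2, whereas the mean of the 8 enzymes was 7.50 and 7.75. Macrophage markers averaged 8.35 on knockout array 1 and 8.56 on knockout array 2, with 4 of the 12 lower on array 2. The part of these cell type levels in the spread of the enzymes was not tested. In bulk RNA, fewer cells of a type and less RNA per cell cannot be told apart.

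**Figure D3:**
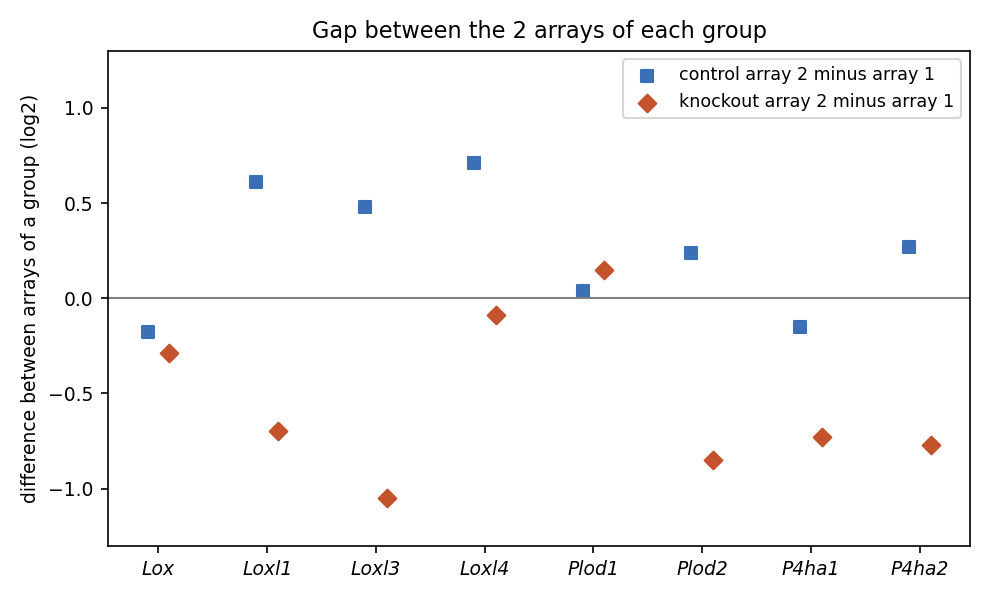
Log2 difference between array 2 and array 1 of the same group for each of the 8 genes. Blue squares are controls and orange diamonds knockouts. The knockout points lie between -1.05 and 0.15, with only Plod1 above 0, and 6 of the 8 control points lie above 0.

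Genes that act beside these enzymes on procollagen came from a list of 28, of which 22 were tested. None passed the test, 8 were higher and 14 lower in the knockouts, and the median difference was -0.06. The groups did not overlap for 10 of the 22 (44.3% of all genes), 4 with the knockouts above and 6 with the knockouts below. The largest difference was that of Tll1, a tolloid-like protease that removes procollagen propeptides and can release active Lox from its precursor.

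Tll1 read 8.41 and 8.00 on control arrays, against 5.63 and 6.49 on knockout arrays. The knockouts were far below the controls, by -2.14 (SE 0.34; limma, adjusted p = 0.187). Bmp1, the main protease with the same roles, read 7.05 and 6.59 on control arrays, against 7.17 and 7.20 on knockout arrays, a difference of 0.36 (SE 0.20; limma, adjusted p = 0.543). Bmp1 differed by 0.13 when control replicate 2 was left out and by 0.59 when control replicate 1 was. Postn, periostin, a matrix protein known to help Bmp1 act on Lox, differed by 0.86 (SE 0.39), and Fmod, fibromodulin, a collagen-binding proteoglycan that also binds Lox, by 0.70 (SE 0.25). Without control replicate 2 these were 0.31 for Postn and 0.44 for Fmod, and without control replicate 1 they were 1.41 and 0.97.

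Other genes of the list act with the hydroxylases inside the cell. P4hb differed by -0.03 (SE 0.15), P4ha3 by -0.08 (SE 0.25) and Serpinh1, the collagen chaperone, by 0.01 (SE 0.20). These 3 overlapped between the groups and changed sign when single arrays were left out. Colgalt1, which adds galactose to the hydroxylysines that Plod enzymes make, read 7.19 and 7.10 on control arrays, against 7.41 and 7.57 on knockout arrays, higher on both knockout arrays as Plod1 was, with a difference of 0.34 (SE 0.14; limma, adjusted p = 0.467). P3h4, a member of the complex in which Plod1 works, differed by -0.42 (SE 0.25), and by -0.09 without knockout replicate 2 or -0.75 without knockout replicate 1. Tmem38b, an ion channel of the endoplasmic reticulum whose loss disturbs lysine hydroxylation, differed by 0.00 (SE 0.13), with a sign that also changed when single arrays were left out.

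The substrates were split between collagen and elastic fibre genes. Of 17 collagen chain genes, all tested, 10 were higher and 7 lower, with a median of 0.16 and none past the test. The groups did not overlap for 6 of them (35.3%, beside 44.3% of all genes). Col3a1, a fibrillar collagen chain of the vessel wall, read 5.45 and 5.40 on control arrays, against 7.00 and 6.22 on knockout arrays, 1.18 higher (SE 0.29; limma, adjusted p = 0.287). Col1a1 differed by 0.29 (SE 0.13) and Col1a2 by 0.24 (SE 0.13), both higher without overlap. Col11a1 differed by -0.65 (SE 0.20), Col6a1 by -0.65 (SE 0.34) and Col15a1 by 0.37 (SE 0.25). Single arrays set much of the latter values: Col6a1 differed by -0.18 without knockout replicate 1 and by -1.12 without knockout replicate 2, and Col15a1 by 0.69 and 0.04 in the same refits.

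Of 15 elastic fibre genes listed, 12 were tested, of which 4 were higher and 8 lower in the knockouts, with a median of -0.25 and none past the test. For 6 of the 12 the knockouts lay below the controls without overlap (27.5% of all genes), and for none did they lie above. Eln, elastin itself, the other main substrate of Lox and Loxl1, read 5.10 and 6.57 on control arrays, against 3.98 and 4.08 on knockout arrays. Its difference of -1.80 (SE 0.50; limma, adjusted p = 0.335) was -1.07 without control replicate 2, the array on which Loxl4 and Loxl1 were highest too. Ltbp1, a carrier of latent TGF-beta on fibrillin, differed by -1.64 (SE 0.29), Efemp1, fibulin-3, by -1.32 (SE 0.61) and Fbln5, fibulin-5, by -1.13 (SE 0.48). Efemp1 differed by -0.48 without control replicate 2 and by -2.15 without control replicate 1, and Fbln5 by -0.47 without knockout replicate 2 and by -1.80 without knockout replicate 1. The median over the elastic fibre genes was -0.70 when genes below the 75th percentile of level were left out.

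**Figure D4:**
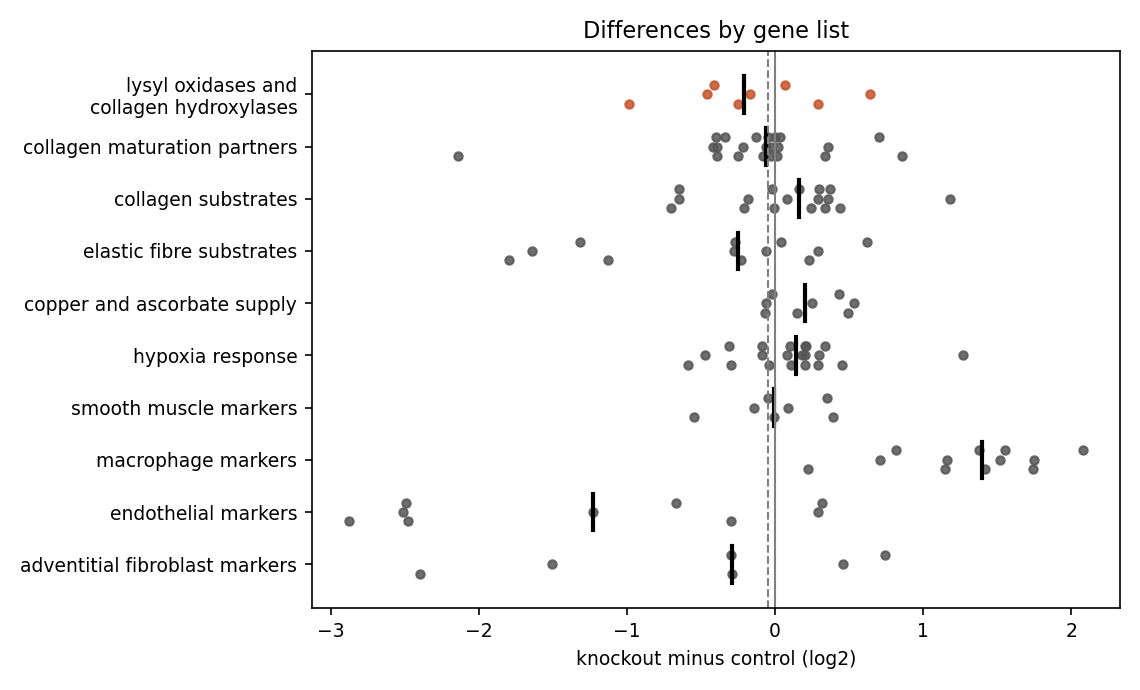
Knockout minus control difference (log2) of each tested gene, by list. Points are genes, orange for the 8 enzymes and grey for other lists, short black bars are list medians, the solid line is 0 and the dashed line the median of all tested genes (-0.05). The enzyme median is -0.21, and the macrophage and endothelial markers lie farther from 0, with medians of 1.40 and -1.23.

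Genes that supply copper and ascorbate had higher means in 5 of 8 tested, with a median of 0.20 and none past the test. For 4 of the 8 the knockouts lay above the controls without overlap (16.7% of all genes). Atp7a, the pump that loads copper onto secreted enzymes such as Lox, read 6.07 and 5.75 on control arrays, against 6.27 and 6.41 on knockout arrays, 0.43 higher (SE 0.17; limma, adjusted p = 0.447). The copper importer Slc31a1 differed by 0.25 (SE 0.14), its relative Slc31a2 by 0.53 (SE 0.16) and Slc23a2, an ascorbate transporter, by 0.49 (SE 0.21). Atp7a differed by 0.27 without control replicate 2, and Slc23a2 by 0.24 without control replicate 1 and 0.74 without control replicate 2.

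Genes of the hypoxia response, to which several hydroxylase genes belong, had 13 of 20 higher and 7 lower, with a median of 0.14 and none past the test. The groups did not overlap for 7 of the 20 (44.3% of all genes, a larger share). Pdk1, a kinase that restrains pyruvate oxidation, differed by 1.27 (SE 0.32), Slc2a1, the glucose transporter, by 0.30 (SE 0.15) and Ero1a, an oxidase of the endoplasmic reticulum, by -0.59 (SE 0.21). Egln1, a prolyl hydroxylase that marks hypoxia-inducible factors for degradation, differed by -0.31 (SE 0.16). Without control replicate 1 the median over the list was 0.03, and Pdk1 differed by 0.83, Slc2a1 by 0.19, Ero1a by -0.34 and Egln1 by -0.19. With the mean of the 2 rows that each has, Pdk1 differed by 0.98, Slc2a1 by 0.19 and Ero1a by -0.48.

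Markers of other cell types moved between the same groups as Plod1 and Loxl4. All 12 macrophage markers were higher in the knockouts without overlap (16.7% of all genes). Their mean log2 level was 7.14 and 7.20 on control arrays, against 8.35 and 8.56 on knockout arrays, and each had a mean above 3.02. Ptprc, the leukocyte antigen CD45, differed by 1.75 (SE 0.16) and Mrc1, the mannose receptor, by 2.08 (SE 0.38). Of 9 endothelial markers tested, 7 were lower, whereas Kdr (0.32, without overlap) and Vwf (0.29, with overlap) were higher. The mean level of the 9 was 5.75 and 5.28 on control arrays, against 4.06 and 4.31 on knockout arrays. Ptprb, an endothelial phosphatase, differed by -2.88 (SE 0.16), Cdh5, the endothelial cadherin, by -2.51 (SE 0.63) and Pecam1, an endothelial adhesion molecule, by -2.49 (SE 0.18), and Tek was below 3.02. Of 6 adventitial fibroblast markers tested, 4 were lower, with means of 6.36 and 6.59 on control arrays, against 5.88 and 5.97 on knockout arrays. Cd34 differed by -2.40 (SE 0.51) and Dpt by -1.51 (SE 0.46), both without overlap, whereas Dcn (0.46) and Lum (0.74) were higher with overlap between the groups. The median over the fibroblast markers was -0.29, and it was -0.58 without control replicate 1 and -0.08 without control replicate 2. Cdh5 differed by -1.63 without control replicate 1. Smooth muscle markers had a median difference of -0.01, with 3 higher and 4 lower of 7, and that median was -0.31 without knockout replicate 1 and 0.28 without knockout replicate 2. Among them Smtn, smoothelin, differed by -0.55 (SE 0.15) without overlap (limma, adjusted p = 0.335), but by -0.29 with the mean of its 2 rows. The part of these levels in the differences of Plod1, Loxl4 or the other enzymes was not tested.

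The genes whose values over the 4 arrays were closest to those of Plod1, the member with the smallest unadjusted p, were Zc3hav1, Pccb and Tyrobp. Likeness was the Euclidean distance between log2 values centred on each gene's mean, 0.043 for Zc3hav1, 0.047 for Pccb and 0.068 for Tyrobp. Plod1 was picked by its difference between the groups, so genes close to it over 4 arrays share that difference by construction. Whether they share a cell of origin or regulation with Plod1 was not tested. Tyrobp, an adaptor of myeloid receptors and one of the macrophage markers above, read 9.71 and 9.77 on control arrays, against 10.36 and 10.53 on knockout arrays, a difference of 0.71. Zc3hav1, an antiviral zinc finger protein, and Pccb, a subunit of mitochondrial propionyl-CoA carboxylase, each differed by 0.65.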

How the data were processed

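The authors deposited log2 expression values made with RMA, per the submitters' processing notes, for 41345 rows on 4 Mouse Gene ST 2.1 arrays. Values ran from 1.17 to 12.4, from which the log base was read. Genome build and software version were not given in the sources used here. Rows were named through the platform annotation, with 23521 carrying 1 symbol. For the 1082 genes with several rows the one with the highest mean was used. After dropping genes whose mean fell under the median of row means (3.02), limma 3.58.1 (R 4.3.3; lmFit, then eBayes) compared knockout with control for 12550 genes, two-sided, without covariates, with Benjamini-Hochberg adjustment and a threshold of 0.05. Each p-value reflects array-to-array spread, which may in part be technical. Precision was limited by the number of arrays. All 8 enzymes and Mmp14 are named. Other genes named are among the 4 of each list with the largest difference and groups that did not overlap, with P4hb, P4ha3, Serpinh1, Colgalt1, Tmem38b, Bmp1 and Egln1 in any case. Acta2, Cnn1, Tagln, Myh11, Lmod1, Tek, Kdr, Vwf, Dcn, Lum, Col1a1 and Col1a2 were named outside that rule, after their values were seen. The ratios within arrays were also chosen after the values were seen. The enzymes and lists were chosen with earlier results of these data known. The code of the fit was tested on simulated data, which is not used here as a measure of power for the differences reported. Alternatives were a replicate block, other filters, scalings, row rules, priors and array weights, and leaving out each array. Plots used matplotlib 3.10.9.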

Additional observations from a re-analysis of the deposited data

How the results depend on the processing

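Limma called 0 genes at an adjusted p under 0.05 in all 13 refits, and 0 at a threshold of 0.10, which was applied to the fit without alterations alone. Unadjusted p-values under 0.05 were found for 1465 genes, for 975 without control replicate 1 and for 929 with the 75th percentile filter, which tests 6786 genes and leaves out Loxl4. Leaving out 1 array at a time, the number of the 8 enzymes that were higher ran from 1 (without knockout replicate 1) to 4, and their median difference from -0.55 to 0.16. Ranges that crossed 0 in the same refits were -0.70 to 0.36 for Loxl3, -0.29 to 0.44 for P4ha1, -0.09 to 0.67 for P4ha2, -0.13 to 0.07 for P4hb, -0.35 to 0.19 for P4ha3, -0.03 to 0.03 for Tmem38b and -0.18 to 0.20 for Serpinh1. A lone array was taken to vary as the arrays of the other group did. Plod1 (0.57 to 0.72), Loxl4, Lox, Loxl1 and Plod2 kept their direction in these refits. A second quantile normalisation gave 48.1% of all genes higher, from 41.7%, and a Plod1 difference of 0.71. With the title number as a replicate block the median over the enzymes was -0.21 and 0 genes were called at 0.05. Refits did hold genes under 0.10, such as Ptprb with this block (limma, adjusted p = 0.0777). Same-numbered arrays had deviations that correlated at 0.0454 over genes, and the labels do not say that a number marks a pair, so the numbers were not used as pairs.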
